A study of Mus musculus with 12 samples.

Results

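The MHC class II pathway was examined as 10 named genes among the 31053 genes of an scRNA-Seq matrix of CD45+ cells from MC38 tumors. The list holds the genes of the class II chains (H2-Aa, H2-Ab1 and H2-Eb1), the invariant chain (Cd74), the peptide editor H2-DM (H2-DMa, H2-DMb1 and H2-DMb2), its inhibitor H2-O (H2-Oa and H2-Ob) and the transactivator Ciita. They were chosen by name, and all 10 were found. MC38 cells come from a colon adenocarcinoma of C57BL/6 mice and form tumors under the skin of that strain. The 12 mice received vehicle or the EZH2 inhibitor PF-06821497 (EZH2i) at 100 mg/kg each day for 7 or 16 days, with 3 mice in each of 4 groups, and tumors were taken on day 17 after implantation. The CD45+ cells were enriched with microbeads and sequenced with 10x Genomics 3' v3 chemistry, and the age of the mice is not given in the sources used here. Barcodes carry a library number from 1 to 12 that no label ties to a mouse or a group, so EZH2i and vehicle were not compared. Values are given over libraries, with no p-value.

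Class II molecules present peptides from the endosomes to CD4+ T cells. Dendritic cells, B cells and macrophages are the professional antigen-presenting cells, and mouse T cells and neutrophils are not counted among them. The alpha and beta chains assemble with the invariant chain, whose remaining fragment is exchanged for peptide with the help of H2-DM, and H2-O restrains H2-DM, mostly in B cells and some dendritic cells. CIITA does not bind DNA itself. It joins the RFX, NF-Y and CREB factors at the X and Y boxes upstream of class II genes, and interferon gamma induces it in macrophages.

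In mm10 (GRCm38), GENCODE M21 places 8 of the 10 genes within 224 kb of chromosome 17, between 34092340 and 34316674. In order along the chromosome these are H2-Oa (ENSMUSG00000024334), H2-DMa (ENSMUSG00000037649), H2-DMb2 (ENSMUSG00000037548), H2-DMb1 (ENSMUSG00000079547), H2-Ob (ENSMUSG00000041538), H2-Ab1 (ENSMUSG00000073421), H2-Aa (ENSMUSG00000036594) and H2-Eb1 (ENSMUSG00000060586). H2-Aa is the only one of these 8 on the minus strand. Ciita (ENSMUSG00000022504) lies on chromosome 16 from 10480059 to 10528418. H2-DMa overlaps Brd2 on the other strand and the annotated locus CR974462.3 on its own strand, and Cd74 overlaps Mir5107 on its own strand. H2-Oa (BC051537) and H2-Eb1 (Gm20513) overlap annotated genes on the other strand. How these overlaps affect the counts was not tested.

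The promoter table of RefSeq (GRCm38.p6) held 7 of the 10 genes, with 250 bases before and 50 bases after the start site. H2-DMa has 2 windows in it and the other 6 have 1 each. Of the 8 windows 7 held the Y box core GATTGG, which 16.1% of the 32851 promoters in the table hold on either strand. The window without it was the first of H2-DMa, and in the other window of H2-DMa the core began 199 bases before the start site. By GENCODE M21, 5 of 8 H2-DMa transcripts run across the bases before that start site. The nearest later start of a transcript is 10111 bases away. The X box core ATGATG, written down after these sequences had been read, was found on either strand in 11.2% of promoters and in H2-Eb1, H2-DMb1, H2-DMb2 and H2-Ob. In these 4 genes it ended 16 to 19 bases before a Y core on the same strand. An X core that ends 15 to 20 bases before a Y core was found in 8 promoters of the whole table (0.0244%). This spacing was also set after that of the 4 genes had been seen, so their place among the 8 follows from the choice and is no result. No matches of the X and the Y core overlapped. Bases before a start site of H2-Eb1, H2-Ob and H2-DMb2 are shown because these genes share this arrangement. Their levels, given below, follow different orders of cell classes. H2-Aa is set beside them as a chain gene that holds the Y core but not the exact letters ATGATG. X boxes with other letters were not searched for, so H2-Aa is not shown to lack an X box. Capitals mark the X core and the Y core, with CCAATC in H2-Eb1 as a Y core on the other strand, each sequence is read 5′ to 3′ along its gene, and each stretch ends where GENCODE M21 next places an exon of the gene. For H2-DMb2 this is the first exon of 1 of its 3 transcripts, while another transcript begins upstream, at 34143307, and has the stretch in its first intron. The places are chr17:34287824-34287963 for H2-Aa (minus strand) and, on the plus strand, chr17:34305727-34305866 for H2-Eb1, chr17:34238765-34238902 for H2-Ob and chr17:34145109-34145235 for H2-DMb2.
H2-Aa: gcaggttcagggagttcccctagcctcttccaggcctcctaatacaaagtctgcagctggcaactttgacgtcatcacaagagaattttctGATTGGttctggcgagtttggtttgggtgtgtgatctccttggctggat
H2-Eb1: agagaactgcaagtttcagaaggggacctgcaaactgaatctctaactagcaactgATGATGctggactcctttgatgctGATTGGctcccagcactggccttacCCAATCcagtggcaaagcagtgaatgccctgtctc
H2-Ob: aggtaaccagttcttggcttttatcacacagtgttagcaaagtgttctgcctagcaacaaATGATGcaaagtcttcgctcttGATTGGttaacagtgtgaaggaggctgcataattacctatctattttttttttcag
H2-DMb2: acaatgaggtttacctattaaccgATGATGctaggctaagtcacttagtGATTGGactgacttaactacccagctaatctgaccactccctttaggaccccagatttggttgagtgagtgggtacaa
A match describes the letters only, and no binding was measured here.

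Of 140639 barcodes, 128912 passed the limits on genes and mitochondrial UMIs (unique molecular identifiers), and 103397 of them fell into 6 classes gated on lineage transcripts. These were 85591 macrophages, 6793 T cells, 4962 monocytes, 3079 neutrophils, 2641 dendritic cells and 331 B cells, of which 158 came from library 10. No class II gene was used in a gate. Flt3 and Zbtb46, dendritic genes that were not used in the gates either, summed to 1.28 UMIs per 10000 in the dendritic class and 0.00905 in macrophages. Ptprc, which encodes CD45, had a UMI in 61.7 to 92.1% of the cells of a library. Libraries held 4256 to 38110 barcodes, and the median UMI count of a cell ran from 2291 in library 6 to 15081 in library 12. Library 4 stood apart with 31 T cells and 1313 neutrophils. The mice are described as female, yet Ddx3y, Eif2s3y, Kdm5d and Uty summed to 128 to 209 CPM (counts per 1000000 UMIs) in libraries 1 to 6, which had almost no Xist, and to 0 in the other 6 libraries. The same barcode sequence occurred in more than one library for 2261 of 138353 distinct sequences.

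Among the 5 classes other than B cells, the median class II level was highest in dendritic cells, lower in macrophages and monocytes, and lowest in T cells and neutrophils. B cells, with enough cells in 3 libraries, had no settled order with dendritic cells. As the assay counts 1 UMI per 3' transcript end, CPM was compared between genes without correction for length. The 10 genes together took 17042 CPM in the lowest library, 34093 CPM as the median and 49762 CPM in the highest library in dendritic cells. The values in macrophages were 6209, 15793 and 26130 CPM, with library 10 lowest and library 5 highest. Dendritic cells were above macrophages in 11 of 12 libraries, and library 5 was the exception with 22577 against 26130 CPM. Without library 4 the medians were 36511 CPM in dendritic cells and 17107 CPM in macrophages. In the 6 libraries with Y-linked transcripts they were 26966 and 18357 CPM, and in the other 6 they were 36550 and 14227 CPM.

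Monocytes gave 8373, 15545 and 19661 CPM. They were below macrophages in 6 of 12 libraries and above in the other 6, so these classes had no order. With gates at 2 times the UMIs, the monocyte median was 10837 CPM and macrophages were higher in 91.7% of libraries. T cells, at 2506, 3702 and 9929 CPM, were below monocytes in all 12 libraries. Neutrophils gave 559, 1538 and 17877 CPM, and their highest values came from 28 cells in library 5 and 23 cells in library 6. T cells were above neutrophils in 10 of 12 libraries. B cells reached 20 cells in only 3 libraries, where the sum was 24397 CPM in library 1, 18566 CPM in library 5 and 25572 CPM in library 10. The dendritic values there were 31355, 22577 and 23393 CPM, so dendritic cells were higher in 2 of 3. With gates at 2 times the UMIs only library 10 could be compared, and B cells were higher there.

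**Figure D1:**
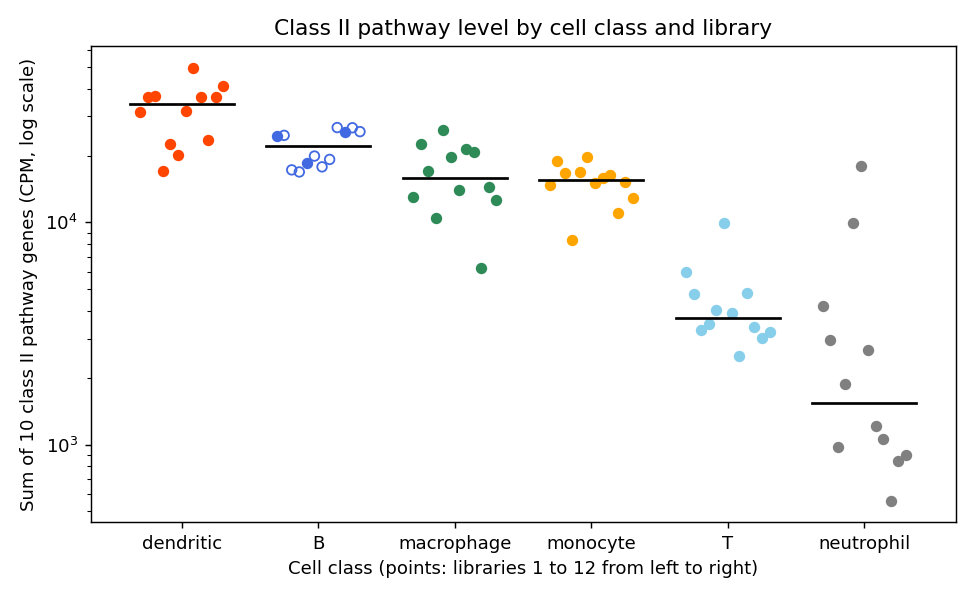
Summed CPM of the 10 class II pathway genes (log scale) in 6 cell classes, with 1 point per library, open points for fewer than 20 cells and a bar at the median. Dendritic cells have a median of 34093 CPM, macrophages and monocytes overlap, most B cell points stand for fewer than 20 cells, and T cells and neutrophils have the lowest medians, with neutrophils of libraries 5 and 6 (9956 and 17877 CPM) and T cells of library 6 (9929 CPM) above the lowest macrophage library.

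Cd74 was the most abundant of the genes in every class, with 37.9% of the pathway's UMIs in dendritic cells, 39.3% in macrophages and 47.2% in B cells. It encodes the invariant chain (ENSMUSG00000024610, on chromosome 18 from 60803848 to 60812652), which occupies the groove of new class II molecules. Its level was 6168 CPM in the lowest, 12824 CPM in the median and 19224 CPM in the highest library in dendritic cells, against 2691, 6411 and 9561 CPM in macrophages. Cd74 UMIs per UMI of H2-Aa plus H2-Ab1 had a median of 0.982 in dendritic cells, 1.13 in macrophages and 1.38 in B cells. This ratio was higher in macrophages than in dendritic cells in 12 of 12 libraries, and in B cells than in macrophages in 12 of 12, although 9 of those libraries had fewer than 20 B cells.

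H2-Aa and H2-Ab1 encode the alpha and beta chains of I-A, and H2-Eb1 the beta chain of I-E. The alpha chain of I-E is not among the 10 genes and no protein was measured. The H2-Eb1 values are thus of RNA and do not show that I-E molecules are formed. H2-Aa had 3305, 6022 and 8689 CPM in dendritic cells and 1076, 2906 and 5521 CPM in macrophages. H2-Ab1 had 3453, 7318 and 10039 CPM in dendritic cells and 1114, 3201 and 5653 CPM in macrophages. The ranges of both genes overlapped between the classes, but within libraries dendritic cells were higher in 11 of 12. H2-Eb1 was at 3331, 6226 and 9750 CPM in dendritic cells and at 890, 2569 and 4208 CPM in macrophages. Between macrophages and monocytes H2-Eb1 differed by a median of 0.17 on the log2 scale, with macrophages higher in 10 of 12 libraries, and H2-Ab1 by -0.01, with macrophages higher in 6.

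**Figure D2:**
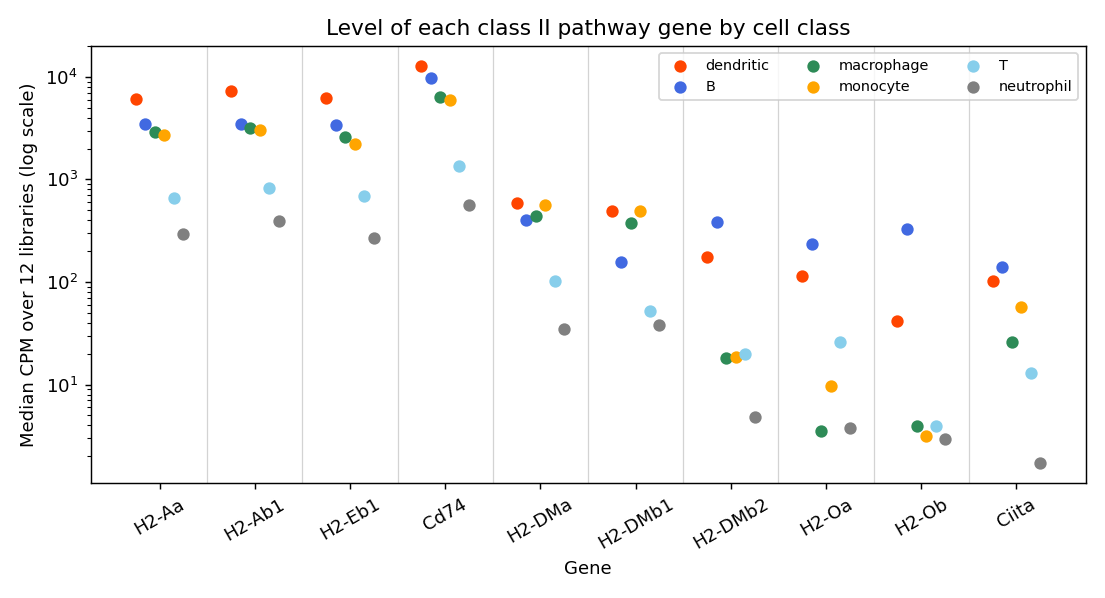
Median CPM over 12 libraries (log scale) of each of the 10 genes in 6 cell classes, marked by color. By these medians the chain genes and Cd74 share 1 order of classes, but this order did not hold in every library. Macrophages were above monocytes in 7 of 12 libraries for H2-Aa and Cd74, in 6 for H2-Ab1 and in 10 for H2-Eb1. H2-DMb2, H2-Oa, H2-Ob and Ciita have their highest medians in B cells. H2-DMb1 has a lower median in B cells (157 CPM) than in macrophages (377 CPM). The B cell medians include libraries with too few B cells to be compared.

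A gene was called between 2 classes when the median log2 ratio over libraries (with 1 CPM added) was at least 1 and every library had the same sign. Between dendritic cells and macrophages 4 of 10 class II genes were called higher in dendritic cells, beside 7.81% of the 9376 genes tested, and 0 were called lower, beside 10.9%. The 4 were H2-Oa (median log2 ratio 4.42), H2-DMb2 (3.55), H2-Ob (3.14) and Ciita (2.03). H2-Oa and H2-Ob, at medians of 3.55 and 3.93 CPM in macrophages, passed the filter of 5 CPM only through their dendritic level. Their calls thus rest in part on that filter, which was the same for all genes. For the chain genes the medians were 1.13 to 1.35, and library 5 had the opposite sign. Cd74 had a median of 1.00 and was higher in dendritic cells in 10 of 12 libraries. Without library 5 the number called was 7, beside 7.99% of all genes tested. H2-DMa (0.45) and H2-DMb1 (0.35) had the smallest differences. In the 6 libraries without Y-linked transcripts 8 of the 10 were called, beside 8.57%, and in the 6 with them 4 were called, beside 8.27%. The same sign in every library is easier to reach in fewer libraries.

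In the 3 libraries with enough B cells, 4 genes were called lower in dendritic than in B cells (H2-DMb2, H2-Oa, H2-Ob and Ciita), beside 8.68% of all genes tested, and H2-DMb1 was called higher, beside 24.7%. The same 4 genes were called higher in B cells than in macrophages, beside 9.53%, and H2-DMb1 lower, beside 28%. Over 12 libraries the macrophage medians of H2-Oa and H2-Ob were 3.55 and 3.93 CPM, under the filter of 5 CPM. Their calls against macrophages may thus rest in part on their B cell level. Of the 9 class II genes tested between macrophages and monocytes, 0 were called higher in macrophages, beside 9.46%, and Ciita was called lower, beside 4.11%. Macrophages exceeded T cells by this rule for 6 of 9 genes, beside 14%, and neutrophils for 6 of 8, beside 26.7%, while 0 of 8 were lower than in neutrophils, beside 5.55%. Monocytes exceeded T cells for 7 of 9, beside 12.6%.

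The pair of genes for the H2-DM beta chain split by class. H2-DMb1 was at 161, 377 and 516 CPM in macrophages and at 196, 490 and 637 CPM in dendritic cells. H2-DMb2 was at 7.96, 18.3 and 42.7 CPM in macrophages and at 80.3, 177 and 358 CPM in dendritic cells. These ranges did not overlap, and the share of all genes with ranges apart is not given here. As a share of the UMIs of both genes, H2-DMb2 took a median of 4.26% (3.04 to 9.24%) in macrophages, 3.62% (1.53 to 8.72%) in monocytes, 28.4% (20.4 to 39.9%) in dendritic cells and 73.5% (61.9 to 85.7%) in the B cells of 6 libraries with at least 20 of these UMIs. In these 6 libraries, of which 3 had fewer than 20 B cells, B cells were above dendritic cells every time, and dendritic cells were above macrophages in 12 of 12. T cells had a median of 23.5% (2.44 to 39.7%, 11 libraries), and dendritic cells were above them in 7 of 11. The genes are paralogs in tandem, and reads that fit both would be uncertain. In the last 400 bases of the longest transcript, 7.69% of the 50-base stretches of H2-DMb1 and 0% of those of H2-DMb2 occurred in a transcript of the other gene.

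H2-DMa, the alpha chain shared by both beta chains, was at 257, 437 and 614 CPM in macrophages, 217, 563 and 714 CPM in monocytes and 335, 590 and 782 CPM in dendritic cells. Monocytes were above macrophages in 11 of 12 libraries for H2-DMa and for H2-DMb1. H2-DM UMIs per 100 UMIs of H2-Aa plus H2-Ab1 were accordingly 16.1 in monocytes, 13.1 in macrophages and 9.32 in dendritic cells as medians.

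H2-Oa and H2-Ob, the chains of the inhibitor of H2-DM, were near the lower end of detection in macrophages. H2-Oa was at 2.68, 3.55 and 10.7 CPM in macrophages and 35.7, 114 and 218 CPM in dendritic cells. H2-Ob was at 2.15, 3.93 and 7.35 CPM in macrophages and 7.64, 42.1 and 66.9 CPM in dendritic cells. In B cells H2-Ob was at 274 CPM in library 1, 311 CPM in library 5 and 314 CPM in library 10, from 10, 16 and 70 UMIs. H2-O UMIs per 100 H2-DM UMIs had medians of 60.8 in B cells, 14.95 in T cells (7.19 to 23.2, 11 libraries), 12.4 in dendritic cells (5.59 to 16.8), 1.43 in monocytes and 1.01 in macrophages. B cells were above dendritic cells in 10 of 10 libraries, of which 7 had fewer than 20 B cells, and dendritic cells were above macrophages in 12 of 12. Dendritic and T cells had no settled order, with T cells higher in 7 of 11.

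**Figure D3:**
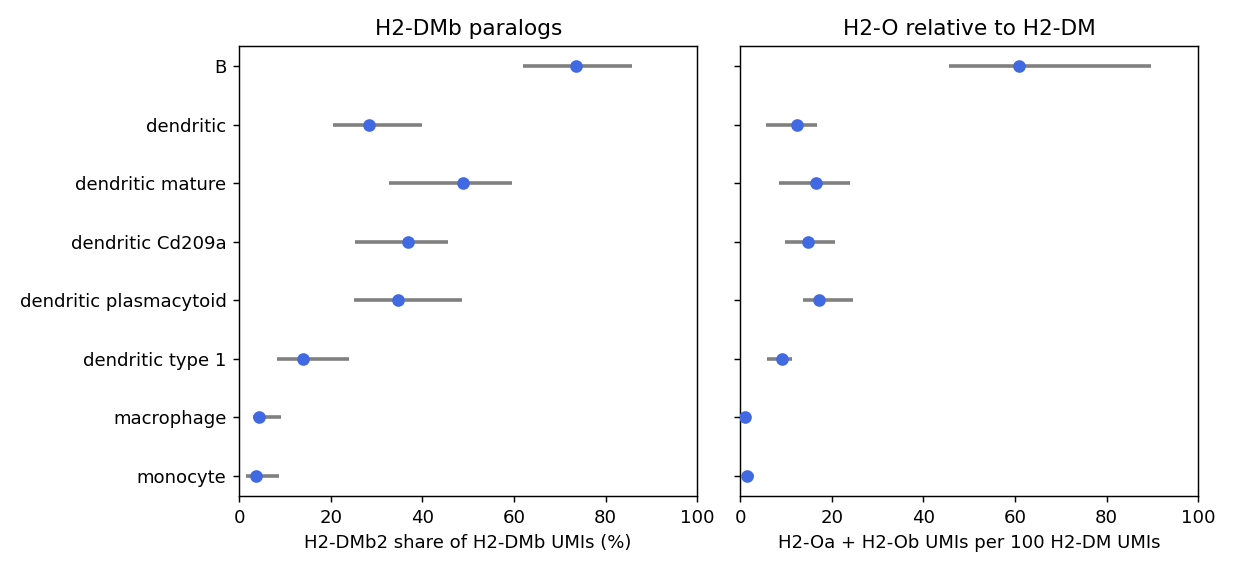
H2-DMb2 as a percentage of H2-DMb1 plus H2-DMb2 UMIs (left) and H2-Oa plus H2-Ob UMIs per 100 H2-DM UMIs (right) in cell classes and dendritic subtypes (T cells and neutrophils not drawn), with points at the median and bars from the lowest to the highest library. Of the classes drawn, B cells lie highest in both (73.5% and 60.8), and macrophages (4.26% and 1.01) and monocytes lie lowest.

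Ciita, the transactivator, did not follow the chain genes across the myeloid classes. It was at 5.74, 26.0 and 47.9 CPM in macrophages and at 24.2, 56.7 and 116 CPM in monocytes, and monocytes were higher in 12 of 12 libraries while the sums of the 10 genes had no order. With gates at 2 times the UMIs the sum was higher in macrophages in 11 of 12 libraries. The order of these classes for Ciita with those gates is not given here. Dendritic cells had 54.3, 102 and 179 CPM and were above monocytes in 10 of 12 libraries. Pooled over libraries, Ciita was at 29.8 CPM in macrophages (exact Poisson 95% interval 29.3 to 30.2, counting error only) and 55.0 CPM in monocytes (52.1 to 58.0). The annotated Ciita gene overlaps Dexi on the other strand.

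The dendritic class held 4 subtypes with different class II levels. These were gated on transcripts of mature migratory cells (1388 cells), type 1 cells (562), Cd209a-positive cells (487) and plasmacytoid cells (204). The summed level had medians of 52439 CPM in Cd209a-positive cells, 36639 CPM in type 1 cells, 18875 CPM in mature cells and 11550 CPM in plasmacytoid cells. Cd209a-positive cells were above type 1 cells in 10 of 10 libraries, by a median of 0.42 on the log2 scale, and type 1 cells above mature cells in 11 of 11, by 0.88. Plasmacytoid cells reached 20 cells in 4 libraries only. The macrophage median of 15793 CPM covers all 12 libraries and the plasmacytoid median only 4, so these medians give no order. In library 7 plasmacytoid cells, at 16507 CPM, were above that macrophage median. In library 5 plasmacytoid cells had 9454 CPM and mature cells 12348 CPM, against 26130 CPM in macrophages. The higher level of the dendritic class thus did not hold for every subtype in every library.

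Mature cells, known for CCR7 and for their way to lymph nodes, differed from type 1 cells most in H2-DMb1, by -2.29 on the log2 scale, and in H2-Ob, by -1.77. H2-DMb1 had a median of 122 CPM in mature cells and 757 CPM in type 1 cells. H2-DMb2 did not separate them, at 118 and 117 CPM, with mature cells higher in 8 of 11 libraries. The share of H2-DMb2 among the beta chain UMIs was therefore 48.9% in mature cells and 14.0% in type 1 cells as medians. Cd209a-positive cells exceeded type 1 cells in H2-DMb2 (median log2 ratio 1.70) and H2-Oa (1.51) in 10 of 10 libraries, whereas H2-Ob was higher in type 1 cells in 9 of 10. Ciita had medians of 186 CPM in Cd209a-positive, 106 CPM in type 1 and 40.1 CPM in mature cells.

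The ratio of chain genes also differed among the subtypes. H2-Aa UMIs per H2-Ab1 UMI had a median of 1.16 (0.931 to 1.45) in mature cells and 0.762 (0.701 to 0.860) in type 1 cells, and the ranges did not overlap. H2-Eb1 per H2-Ab1 was 1.15 (1.01 to 1.51) and 0.764 (0.672 to 0.953), again without overlap. Cd209a-positive cells lay at 0.823 and 0.831. Plasmacytoid cells, in 4 libraries, had medians of 1.07 for H2-Aa per H2-Ab1 and 0.713 for H2-Eb1 per H2-Ab1. The first of these lies inside the range of mature cells, so a higher H2-Aa ratio was not limited to mature cells. The share of other gene ratios with ranges apart is not given here.

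Class II UMIs in T cells were spread unevenly over barcodes. To make depth equal, 1000 UMIs were drawn at random from every cell, and cells under 1000 UMIs were left out (633 of 6793 T cells, 1171 of 3079 neutrophils, 1098 of 85591 macrophages, 323 of 4962 monocytes, 95 of 2641 dendritic cells and 75 of 331 B cells). At this depth the share of cells with a UMI of any of the 10 genes had a median over libraries of 96.3% in dendritic cells (89.1 to 98.9%), 88.3% in macrophages (68.9 to 99.2%), 84.1% in monocytes (76.2 to 97.5%), 44.3% in neutrophils (29.3 to 74.7%, 10 libraries) and 37.6% in T cells (20.7 to 78.7%). With the cells of all libraries pooled, 51.5% of T cells (exact binomial 95% interval 50.3 to 52.8%) and 46.7% of neutrophils (44.4 to 49.0%) had one. The order of these 2 classes turned between the medians and the pooled shares, so none was read. As counted, 99.2% of macrophages and 99.0% of dendritic cells had one. All 256 thinned B cells had a class II UMI. The median T cell had 0 class II UMIs per 1000 in the median library, and barcodes with 10 or more, 5.16% of T cells as a median over libraries (1.93 to 29.2%), held 72.8% of the class II UMIs of the class (48.8 to 86.6%). Both highest values came from library 6, which had the most T cells.

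The chain genes, Cd74 and H2-DMa stood in T cells at medians of 23.4 to 24.7% of their macrophage level in the same library. For Lyz2 and Apoe, abundant macrophage transcripts chosen after their values were seen, the medians in T cells were 7.36% and 3.88%. Neutrophils did not show this order, with Lyz2 at 16.1% and Apoe at 8.29%, against 9.29 to 14.8% for the chain genes, Cd74 and H2-DMa. H2-DMb1 stood at 18.7% in T cells. T barcodes held 4.81 UMIs of the macrophage list, 11.7 of the monocyte list and 0.911 of the mature dendritic list per 10000. Passing the monocyte gate did not bar a barcode from the T class. The part of free RNA, of doublets and of the cells' own transcription was not tested, neither in the class II UMIs nor in those of Lyz2 and Apoe. With barcodes of 2 lineages kept, the summed level of T cells was 6425 CPM.

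H2-Oa was higher in T cells than in macrophages and monocytes in 12 of 12 libraries. It was at 9.70, 26.1 and 52.0 CPM in T cells, a median of 574% of the macrophage level, and it was called by the fold rule, beside 10.5% of all genes tested against macrophages and 14.5% against monocytes. Against macrophages, where its median was 3.55 CPM, H2-Oa passed the filter of 5 CPM only through its T cell level. That call thus rests in part on the filter. In the 2433 T cells with no UMI of H2-Aa, H2-Ab1 and H2-Eb1, 66 UMIs of H2-Oa gave 9.57 CPM (exact Poisson 95% interval 7.40 to 12.2). In the 2849 macrophages without these UMIs, 20 UMIs gave 1.23 CPM (0.752 to 1.90). H2-Ob, its partner chain, was at a median of 3.98 CPM in T cells and 3.93 CPM in macrophages.

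Macrophages varied widely in class II level within each library. The thinned macrophage had a mean of 16.1 class II UMIs per 1000 in the median library (6.63 to 26.3), with a coefficient of variation of 1.03 (0.589 to 1.66). No class II UMI was seen in 0.811, 11.7 and 31.1% of macrophages in the lowest, median and highest library, and 30 or more in 5.48, 19.7 and 40.5%. Library 10 had the most macrophages without a class II UMI, and library 5 the fewest. Libraries 5 and 6, which held the most barcodes (20671 and 38110), also had the highest class II level in neutrophils, and whether free RNA takes part in their few empty macrophages was not tested. In the B cells of library 10, the 1 library with enough thinned cells, the coefficient of variation was 0.330. In monocytes it was 1.18 and in dendritic cells 0.775 as medians.

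The spread was carried by the chain genes and Cd74. The Fano factor, the variance of thinned counts over their mean, is about 1 where counting alone sets the spread. Its median over libraries was 4.11 for H2-Aa, 4.76 for H2-Ab1, 4.61 for H2-Eb1 and 7.21 for Cd74, against medians of 1.23, 1.24, 1.22 and 1.45 over genes of like mean. In the median library 1 of the genes of like mean (96 for H2-Aa and 30 for Cd74) had a higher value. H2-DMb1 (1.28), H2-DMa (1.18) and Ciita (1.07) were closer to the genes of like mean (1.06, 1.07 and 1.01), and at means of 0.388, 0.440 and 0.0245 UMIs a cell they had few UMIs to vary.

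Across the macrophages of a library, H2-Aa, H2-Ab1, H2-Eb1 and Cd74 varied together, with median Pearson correlations of 0.78 to 0.80 between pairs (thinned counts, log scale, 12 libraries). Their correlations with H2-DMb1 were 0.33 to 0.34, with H2-DMa 0.24 to 0.26 and with Ciita 0.12 to 0.13. The points of each correlation are cells of 1 library at equal depth. The level of a gene bears on these values, so they do not rank the genes. They did not follow the level alone, as H2-DMb1 lay above H2-DMa at a lower mean (0.387 against 0.440 UMIs).

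Macrophages with a UMI of certain other genes differed in class II level from those without. In 12 of 12 libraries macrophages with a UMI of Cxcl9, a chemokine induced by interferon gamma, had more class II UMIs than those without, at 23.5 against 14.6 per 1000 as medians. Those with a UMI of Ly6c2, a gene of the monocyte list, had 26.6 against 15.8, also in 12 of 12. F13a1 of the same list ran the other way by correlation, as given below. Macrophages with Arg1, which encodes arginase 1, had 13.2 against 18.2, and those with Mrc1 or Folr2, genes of a scavenging macrophage, had 11.9 against 17.5, lower in 12 of 12 libraries each. With the proliferation genes Mki67 or Top2a the values were 13.1 against 16.7, lower in 11 of 12. On the log2 scale the medians of these differences were 0.65 for Cxcl9, 0.79 for Ly6c2, -0.70 for Arg1, -0.62 for Mrc1 or Folr2 and -0.26 for Mki67 or Top2a.

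A UMI in a droplet need not come from the cell's own transcription, so the same genes were counted in neutrophils and T cells at the same depth. Cxcl9 had a UMI in 18.9% of macrophages, 1.72% of neutrophils and 2.41% of T cells as medians over libraries. For Arg1 the medians were 30.5, 6.13 and 4.09%, and for Mrc1 or Folr2 they were 27.7, 0.792 and 0.940%. For these 3 the macrophage share was higher in all 10 libraries compared with neutrophils and all 12 compared with T cells. Mki67 or Top2a had a UMI in 9.73% of macrophages, 2.105% of neutrophils and 11.02% of T cells, and T cells can divide themselves. Ly6c2 had a UMI in 4.23% of macrophages, below neutrophils (8.29%) in 10 of 10 libraries and below T cells (20.7%) in 12 of 12. In library 10 it had a UMI in 3.99% of macrophages and 0 of 122 B cells. T cells and neutrophils may transcribe Ly6c2 themselves, and the macrophage share is bounded by the gates, since Ly6c2 is in the monocyte list and barcodes of 2 lineages were left out. The part of free RNA and of doublets in these differences was not tested.

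**Figure D4:**
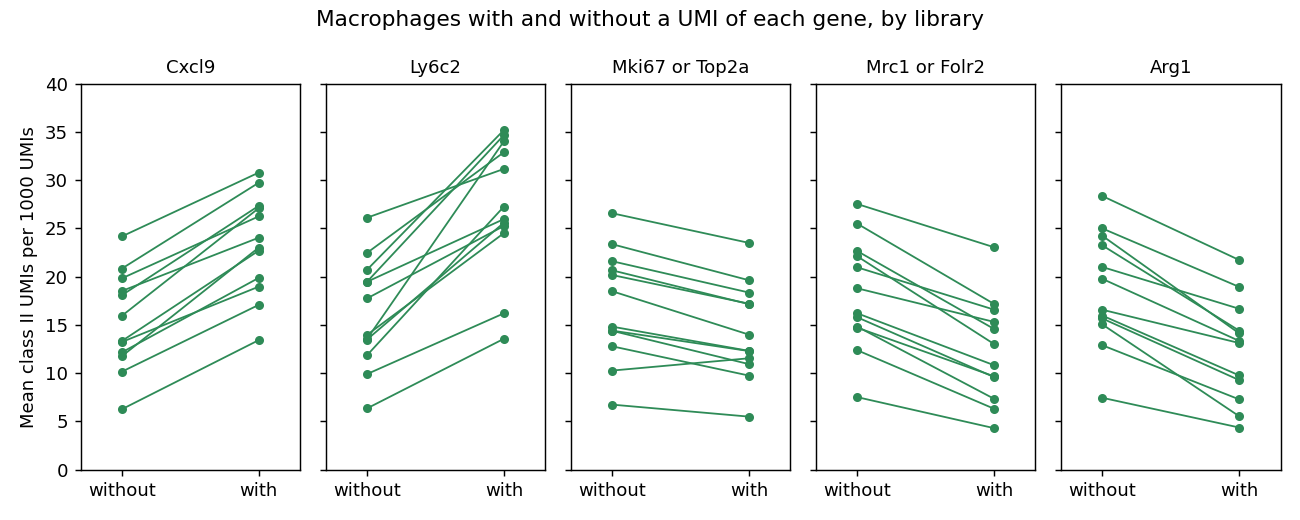
Mean class II pathway UMIs per 1000 UMIs in macrophages without and with a UMI of each named gene, with 1 line per library and 12 lines in each panel. All lines rise for Cxcl9 and Ly6c2, all fall for Arg1 and for Mrc1 or Folr2, and 11 of 12 fall for Mki67 or Top2a.

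Among 2758 other genes with a mean of at least 0.05 UMIs in thinned macrophages, those most like the summed class II genes across cells were Il1b (median correlation 0.31), AW112010 (0.21), Cd52 (0.21), Tgfbi (0.19), Ccr2 (0.18), Cxcl9 (0.18), Plbd1 (0.18), Mgl2 (0.18), Ctss (0.17) and Btg2 (0.16). The median was above 0.1 for 34 genes and below -0.1 for 60. The least like were Ctsd (-0.44), Pf4 (-0.34), Fcrls (-0.32), Ctsb (-0.28) and Ftl1 (-0.25). Genes of the monocyte list did not share 1 direction. Ccr2, Ly6c2 (0.12) and Plac8 (0.10) ran with class II, while F13a1 (-0.16, from -0.31 to -0.09 over libraries) ran opposite. Cathepsin S (Ctss), which cuts the invariant chain in antigen-presenting cells, ran with class II in the median library but from -0.04 to 0.28 over the libraries, while the lysosomal proteases Ctsd and Ctsb were opposite in every library.

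Of 21 other genes of the pathway, 20 were in the matrix, and Ifi30 was not analysed here. By the fold rule, 2 of 20 were higher in dendritic cells than in macrophages (Cd80, a costimulatory ligand, and H2-Eb2, a further beta chain gene), beside 7.81% of all genes tested, and 3 were lower, beside 10.9%. Both counts are near those shares and are not a result about the list. The 3 were proteases of invariant chain and antigen. Ctss was at 584, 828 and 1375 CPM in dendritic cells and 2540, 3499 and 3971 CPM in macrophages. Ctsl was at 49.5, 149 and 232 CPM against 407, 547 and 1669 CPM. Lgmn, legumain, was at 64.5, 115 and 179 CPM against 1460, 2053 and 2430 CPM. In each of these the ranges of the classes did not overlap, and the share of all genes with ranges apart is not given here.

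The genes of the factors that meet CIITA at the promoter were not called between dendritic cells and macrophages. Rfx5 ran from 6.11 to 15.6 CPM over libraries in dendritic cells and from 3.52 to 8.73 CPM in macrophages. The medians in dendritic cells and macrophages were 28.9 and 28.1 CPM for Rfxap, 6.15 and 9.04 CPM for Rfxank, 41.4 and 40.4 CPM for Nfya, and 48.6 and 35.8 CPM for Creb1. H2-Eb2 was at a median of 10.4 CPM in dendritic cells and 0.195 CPM in macrophages. Between macrophages and monocytes 2 of 18 genes tested were called higher (Lgmn and Lag3), beside 9.46% of all genes, and 1 lower (Cd80), beside 4.11%, again near those shares. The receptors for class II, Cd4 and Lag3, were highest in T cells, at medians of 46.3 and 87.4 CPM.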

How the data were processed

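The authors deposited 1 matrix of UMI counts per gene and barcode for all libraries, without normalization. The matrix header names Cell Ranger 3.0.2, while the submitters' processing notes name Cell Ranger 2.1.1, Seurat and mm10. The matrix was treated as 1 pooled sample, because no label or column name ties the library numbers to mice or groups, and library values are given without groups. The comparison of EZH2i with vehicle was not made.

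A cell was kept if it had over 200 but under 5000 genes and no more than 10% of its UMIs on mitochondrial genes. T, B and dendritic subtype gates needed 3 UMIs of at least 2 list genes (T: Cd3e, Cd3d, Cd3g, Trac, Trbc1, Trbc2. B: Cd79a, Cd79b, Ms4a1, Pax5, Bank1. Type 1: Xcr1, Clec9a, Snx22, Gcsam. Cd209a: Cd209a, Kmo, Dpp4. Mature: Ccr7, Fscn1, Ccl22, Cacnb3, Nudt17. Plasmacytoid: Siglech, Ccr9, Cox6a2, Klk1, Pacsin1). Macrophages needed 60 UMIs per 10000 of C1qa, C1qb, C1qc, Adgre1 and Ms4a7, monocytes 40 of Ly6c2, Chil3, Plac8, Vcan, Ccr2 and F13a1, and neutrophils 100 of Csf3r, Cxcr2, Retnlg, G0s2, Hdc, S100a8, S100a9, Mmp9 and Il1r2. Other classes had under 30 macrophage UMIs per 10000. Barcodes that passed the gates of 2 or more lineages, including NK, plasma, basophil or mast and tumor cells, were left out as possible doublets. The monocyte gate was an exception, as it did not bar T, B or plasmacytoid cells. Barcodes past both the macrophage and the monocyte gate were left out too. With macrophages and monocytes counted as the same lineage, 5274 cells (4.09%) passed 2 or more lineages, so this is not the number left out. No doublet caller was run. The gate lists are given in part, as some listed genes and their values are not reported here. The UMI limits of the gates were set after the distributions had been seen.

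UMIs were summed per library and class as CPM. A fold was tested only for genes with a median of at least 5 CPM in 1 of the classes, in libraries with at least 20 cells of both, and gate genes were left out. The genes named are the 10 members, 21 other pathway genes, the gate and program genes, and the 10 highest and 5 lowest genes by likeness. Members and lists were chosen with earlier results of these data known. Intervals cover counting error only, and cells are not replicates. The fold rule, the thinning and the likeness were tested on simulated data. Of the identifiers in the matrix, 30934 of 31053 were found in GENCODE M21. Python 3.11.15 was used with numpy 2.4.6, scipy 1.17.1, pandas 2.3.3 and matplotlib 3.10.9. Alternatives were gates at 2 times the UMIs, barcodes of 2 lineages kept, no mitochondrial limit, libraries left out, libraries with and without Y-linked transcripts apart, cells thinned to 500 UMIs, 10 CPM added and no filter on low values. A limit of 10 macrophage UMIs per 10000 for the other classes was chosen after seeing the data.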

Additional observations from a re-analysis of the deposited data

How the results depend on the processing

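Of 545 values recomputed under the alternatives, 524 stayed within the spread between libraries, within 1.5 times the count or within 15 percentage points of the share of libraries. Dendritic cells were above B cells in 66.7% of the 3 libraries compared, and this order moved most: to 0% with gates at 2 times the UMIs and in libraries without Y-linked transcripts (library 10 alone in both), to 83.3% of 6 libraries with barcodes of 2 lineages kept, to 50% of 2 with the limit of 10 macrophage UMIs, to 100% of 2 in libraries with Y-linked transcripts, and between 50 and 100% when 1 library was left out (50% without library 1 or 5, 100% without library 10). Macrophages were above monocytes in 50% of libraries, which became 91.7% with gates at 2 times the UMIs, 66.7% with and 33.3% without Y-linked transcripts, and 33.3% with the limit of 10 macrophage UMIs. T cells were above neutrophils in 83.3% of libraries, 66.7% with and 100% without Y-linked transcripts. The monocyte level fell from 15545 to 10837 CPM with gates at 2 times the UMIs, and that of T cells went from 3702 to 6425 CPM with barcodes of 2 lineages kept. The H2-DMb2 share in B cells moved from 73.5% to 83.2% without Y-linked transcripts and 82.6% with the limit of 10 macrophage UMIs. The number of class II genes called higher in dendritic cells than in macrophages was 4 to 7 when 1 library was left out (7 without library 5), and 8 in the libraries without Y-linked transcripts. At 500 UMIs per cell, 89.4% of dendritic cells in place of 96.3% had a class II UMI as a median over libraries. The causes of the other moves were not tested; fewer UMIs per cell and fewer libraries are part of these alternatives by construction. Without library 4 no value moved. No paired analysis was possible because the barcodes carry no replicate number of a group. Depth limits H2-Oa, H2-Ob, H2-DMb2 and Ciita in single macrophages, and the 331 B cells limit every B cell value.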
